A study of Arabidopsis thaliana with 4 samples.

Results

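Plasma membrane intrinsic proteins (PIPs) are aquaporins, channels that carry water and small solutes across the outer membrane of plant cells. Transcripts of 10 Arabidopsis thaliana loci, PIP1;1 to PIP1;5, PIP2;1 to PIP2;4 and PIP2;7, were followed. They were chosen by locus as members of the gene family, with earlier results of these data known. The other 3 PIP genes, PIP2;5, PIP2;6 and PIP2;8, were not among them and are read with the other aquaporins. Reads were listed for 7 of the 10, among 21531 loci with reads in at least 1 library. These 7 are called the listed members, and PIP reads, sums and shares below are of these 7 alone. Roots were sampled from the Columbia wild type (Col) and from luh-4, a mutant line of the transcriptional co-repressor gene LUH in the same ecotype. Seedlings were raised at pH 5.5 and at 6 d were moved to solution of pH 4.2 that held either no aluminium (Al) or 25 µM AlCl3. Each of the 4 groups was 1 library from the pooled roots of about 500 seedlings, named here Col control and Col Al for the wild type, and luh-4 control and luh-4 Al for the mutant. The protocol has roots taken after 4 h, yet the control libraries are labelled 0 h. Al and time spent at pH 4.2 therefore cannot be told apart in the Al ratios if that label is right.

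Aquaporins assemble as tetramers in which each subunit forms its own pore. PIP2 proteins are efficient water channels on their own, whereas many PIP1 proteins reach the plasma membrane and conduct water best when they are assembled with a PIP2. In roots, PIPs carry much of the water that crosses living cells on its way to the vascular tissue, and stress is known to act on them through transcript level, phosphorylation and removal from the membrane.

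Between 13.5 and 13.8 M reads were assigned to transcripts in each library. Reads of LUH numbered 75 in the Col library without Al, 63 in the Col library with Al and 0 in either library of the mutant. The root markers NRT2.1 and WOX5 were present in all 4 libraries. Each level below is in RPKM, the read count scaled by coding length and library total, summed over the transcripts of a locus. Each ratio of a single gene is a log2 ratio of RPKM, and each ratio of summed or joined reads is a log2 ratio of reads over library totals. The 95% interval of a ratio, in parentheses, covers counting error only. With 1 library per group there is no replicate check and no p-value for a single comparison. A gene is said to have fallen or risen in a comparison where it passed a 2-fold size rule with an interval that excluded 0, and in the fit of all 4 libraries where it passed the test. Only genes that reached an RPKM of 1 in either library entered a comparison and are called measured. In whole roots, fewer cells of a type and less RNA per cell cannot be told apart.

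The closest pair of members by sequence is shown first, because short reads cannot always separate them. PIP2;2 (AT2G37170) spans chr2:15613368-15615022 on the minus strand and PIP2;3 (AT2G37180) spans chr2:15617635-15619155 on the plus strand, in RefSeq TAIR10.1. The genes lie 2612 bases apart, and each has 4 coding exons. Their coding sequences of 858 bases differed at 45 positions, an identity of 94.8%, and shared an identical run of 242 bases. The coding part of the last exon is printed 5′ to 3′ for each, with the 10 differing bases in capitals.
PIP2;2, chr2:15613624-15613743 (minus strand): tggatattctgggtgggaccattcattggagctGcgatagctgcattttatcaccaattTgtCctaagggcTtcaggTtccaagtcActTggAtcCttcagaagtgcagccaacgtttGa
PIP2;3, chr2:15618818-15618937 (plus strand): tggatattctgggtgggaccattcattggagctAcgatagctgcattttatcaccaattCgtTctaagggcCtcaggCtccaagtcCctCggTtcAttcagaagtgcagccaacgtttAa
Of the windows of 50 bases along either coding sequence, 31.4% were also found in another locus. Reads of the pair are therefore uncertain as single genes, and both were also joined. Among the members, other PIP2 pairs went down to 71.3% identity, PIP1 pairs ran from 79.5% to 87.6%, and a PIP1 with a PIP2 from 63.4% to 68.7%.

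The transcripts of PIP1;2 (AT2G45960, chr2:18910081-18911982, plus strand) differ at the junction of coding exons 3 and 4, shown here as spliced because their reads were counted apart. The coding length is 861 bases for the first transcript and 906 for the third, so the junction is not their only coding difference. The junction is drawn from chr2:18911500-18911627, a stretch that also holds the intron, and the 4 bases that the third transcript keeps are in capitals.
The first transcript, plus strand: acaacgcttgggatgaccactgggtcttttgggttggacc
The third transcript, plus strand: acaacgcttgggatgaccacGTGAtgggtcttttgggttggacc

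Which members were listed went with their transcript models. PIP1;1 (AT3G61430), PIP2;1 (AT3G53420) and PIP2;7 (AT4G35100) were listed in no library, so they were not measured. Each of them has 2 RefSeq transcripts with the same coding sequence, a form that none of the 7 listed members has. Across the genome, 48.3% of 2168 loci of that form were listed, against 76.1% of 16749 loci with 1 transcript and 87.4% of 8527 loci with several coding sequences. Of 2162 loci with several listed transcripts, 15 had 2 listed transcripts that share a coding sequence.

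Coverage differed among the listed members in the same way. Reads covered 100% of the coding length of the 3 listed PIP2 members and of PIP1;5 in every library. They covered 36.1% to 41.5% of the first PIP1;2 transcript, of which 34.3% lies in windows of 200 bases found in no other transcript. For the PIP1;3 transcript the coverage was 51.1% to 53.3%, with 48.2% of it in such windows. The first PIP1;4 transcript was covered over 56.0% to 60.4%, with 50.5% in such windows. PIP2;2 went against this relation, since a longer RefSeq transcript contains its whole listed sequence and it was covered in full. Across the genome, 3297 listed loci with several coding sequences had at least 100 reads in Col control. Of these, 67.6% were covered over at least 90% of a transcript, against 99.3% of 7516 such loci with 1 transcript. The part that counting rules had in these values was not tested.

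PIP2;2 had the highest level of the listed members in every library. Its loss is known to lower the water permeability of root cortex cells. Its level was 1598 RPKM in Col control, 1081 in Col Al, 1403 in luh-4 control and 880 in luh-4 Al, from 18785, 12820, 16538 and 10154 reads. Both Al libraries were below both controls. It ranked 41st of all listed loci in Col control and 137th in luh-4 Al. It held 64.8% of the reads of the 7 listed members in Col control (exact binomial interval 64.2% to 65.3%). In the 4 libraries this share was between 63.6% and 66.0%. In Col control the other levels were 264 RPKM for PIP2;3, 197 for PIP1;3, 125 for PIP2;4, 107 for PIP1;5, 88.2 for PIP1;4 and 82.2 for PIP1;2. The last pair in that order did not differ beyond counting error, with intervals of 82.9 to 93.7 and 77.1 to 87.4 RPKM. All other neighbours in the order had intervals that did not overlap. The order of the members below PIP2;2 depended on the length used. When reads were scaled by covered length, the incompletely covered PIP1 genes stood at 369 RPKM for PIP1;3, 233 for PIP1;2 and 158 for PIP1;4, all above the 107 RPKM of the fully covered gene.

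**Figure D1:**
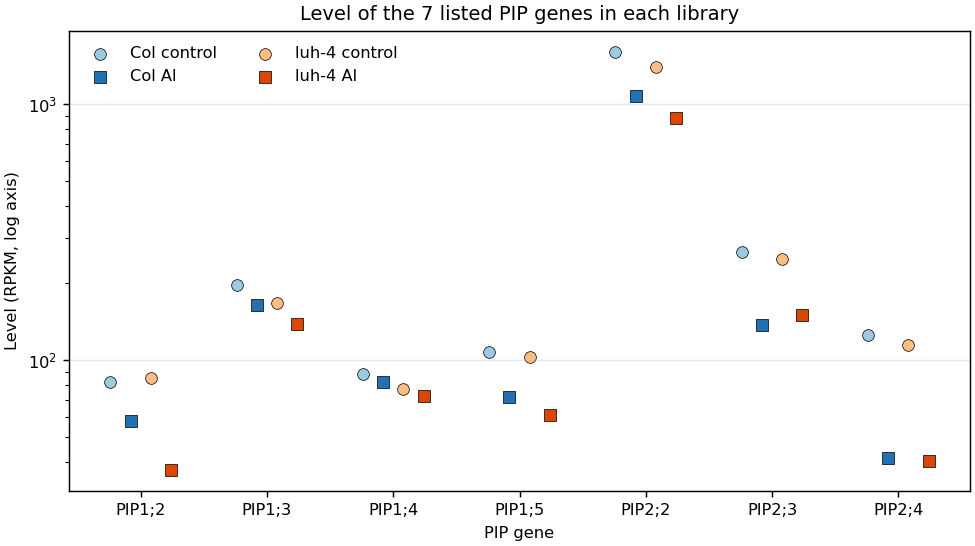
Level in RPKM (log axis) of each of the 7 listed PIP members, with 1 point per library: circles for control and squares for Al, blue for Col and orange for luh-4. The gene with the highest level stood between 880 and 1598 RPKM, and the rightmost gene stood at 41.3 and 40.5 RPKM in the Al libraries against 125 and 115 in the controls.

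The first comparison asked how the PIP transcripts of Col roots responded to Al. Of the 7 listed members, 1 fell and 0 rose, where 2.91% of 17068 measured genes fell and 2.6% rose. PIP2;4 was the gene that fell. The interval lay below 0 for 6 of 7 members and above 0 for 0, against 18.2% and 20.6% of measured genes. An interval excludes 0 more readily for genes with as many reads as these. The median ratio of the 7 was -0.56, where the median of all measured genes was 0.02. Summed over members, PIP reads went from 29011 to 19427, a ratio of -0.59 (-0.62 to -0.57).

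In luh-4 the same comparison gave 2 members that fell, PIP1;2 and PIP2;4, and 0 that rose, where 3.1% of 17117 measured genes fell and 2.02% rose. The interval lay below 0 for 6 of 7 members and above 0 for 0, against 20.6% and 16.9% of measured genes. The median ratio was -0.72, beside -0.02 for all measured genes. Summed PIP reads went from 25986 to 15959, a ratio of -0.67 (-0.70 to -0.64). As a group, PIP2 reads had a ratio of -0.66 (-0.69 to -0.63) for Col and -0.72 (-0.76 to -0.69) for the mutant. For PIP1 reads these were -0.34 (-0.40 to -0.28) and -0.49 (-0.55 to -0.42). The intervals of the groups did not overlap in either genotype, but each sum is weighted towards its members with most reads. Ratios of single listed members overlapped between the groups. In Col they ran from -0.58 to -0.11 for PIP1 and from -1.59 to -0.56 for PIP2. In luh-4 they ran from -1.19 to -0.09 for PIP1 and from -1.499 to -0.67 for PIP2.

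A fit of genotype plus treatment to the reads of all 4 libraries gave the only test. In that fit 6 of 7 members fell with Al averaged over the genotypes (edgeR quasi-likelihood test, adjusted p under 0.05), where 6.69% of 17289 loci fell and 5.6% rose. The fit has 1 residual degree of freedom, so its spread measures only how far the libraries depart from additivity and holds no variation among plants. DESeq2 called 5 of the 7, all lower, where it called 2.44% of the 17289 loci lower and 2.49% higher.

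**Figure D2:**
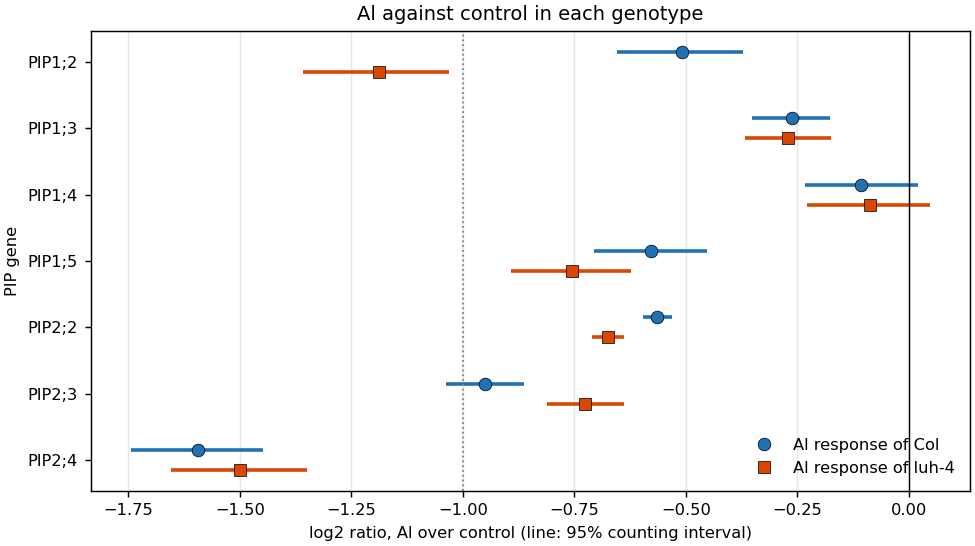
Log2 ratio of Al over control for each listed PIP member, with circles for Col and squares for luh-4. Lines are 95% counting intervals and the dotted line marks a 2-fold lower level. The gene in the bottom row lay past it in both genotypes, at -1.59 and -1.499, and the gene in the top row only in luh-4, at -1.19.

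Among the PIP2 genes, PIP2;4 (AT5G60660, chr5:24375368-24377206, minus strand) moved furthest. It is expressed mainly in roots, and in yeast it is known to let hydrogen peroxide pass as well as water. Its level was 125 RPKM in Col control, 41.3 in Col Al, 115 in luh-4 control and 40.5 in luh-4 Al, from 1498, 500, 1379 and 477 reads. The Al libraries were alike and stood far below both controls. It fell by 66.9% in Col, a ratio of -1.59 (-1.74 to -1.45), and by 64.6% in luh-4, a ratio of -1.499 (-1.65 to -1.35). Averaged over genotypes its Al effect was -1.55 (edgeR adjusted p = 1.892e-07). Its share of the reads of the listed members was 5.16% in Col control (exact binomial interval 4.91% to 5.42%) and 2.57% in Col Al (2.36% to 2.81%).

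PIP2;3 is also known as RD28, a gene first described as responsive to desiccation. Its level was 264 RPKM in Col control, 137 in Col Al, 249 in luh-4 control and 151 in luh-4 Al, from 3104, 1620, 2936 and 1739 reads. The Al libraries were lower in both genotypes, yet neither ratio passed the 2-fold rule. The Al ratio was -0.95 (-1.04 to -0.86) for Col, and for luh-4 it was -0.72 (-0.81 to -0.64). The averaged effect was -0.84 (edgeR adjusted p = 1.784e-05). For its more abundant neighbour the ratios were -0.56 (-0.60 to -0.53) and -0.67 (-0.71 to -0.64), and the averaged effect was -0.62 (edgeR adjusted p = 6.173e-05). The neighbour thus moved less in Col. With the reads of the pair joined, the ratios were -0.61 in Col and -0.68 in luh-4. Its share in the reads of the pair was 14.2% in Col control (exact binomial interval 13.7% to 14.6%) and 11.2% in Col Al (10.7% to 11.7%). In luh-4 it was 15.1% without Al (14.6% to 15.6%) and 14.6% with Al (14.0% to 15.3%). Only the Col Al library stood apart in that share beyond counting error from all of the others.

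Among the PIP1 genes, PIP1;2 stood out in the mutant. The gene is known to contribute to the water permeability of rosettes and roots. Its level was 82.2 RPKM in Col control, 57.7 in Col Al, 85.0 in luh-4 control and 37.3 in luh-4 Al, from 987, 698, 1021 and 437 reads. The controls were alike, and the luh-4 Al library was the lowest. The ratio was -0.51 (-0.65 to -0.37) in Col, and in luh-4 it fell by 1.19 on the log2 scale (interval -1.36 to -1.03). Averaged over genotypes the effect was -0.85 (edgeR adjusted p = 0.0006642). In the same order of libraries, the first transcript took 611, 473, 686 and 308 reads, and the third transcript, with the 4 extra bases, took 370, 224, 329 and 120. The second transcript took 1 to 9 reads per library. Of the reads of the first and the third transcript together, the share of the third was 37.7% in Col control (exact binomial interval 34.7% to 40.8%) and 28.0% in luh-4 Al (23.8% to 32.6%). The shares in Col Al and luh-4 control lay between these, at 32.1% and 32.4%. The first and the third transcript were thus both lowest in luh-4 Al.

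PIP1;5 (AT4G23400, chr4:12220641-12222468, plus strand) had a level of 107 RPKM in Col control, 71.9 in Col Al, 103 in luh-4 control and 60.9 in luh-4 Al, from 1272, 859, 1222 and 708 reads. Its Al ratio was -0.58 (-0.71 to -0.45) for Col, and for luh-4 it was -0.76 (-0.89 to -0.62). Its averaged effect was -0.67 (edgeR adjusted p = 0.0001722). Both Al libraries were below both controls. PIP1;3 (AT1G01620, chr1:225665-227543, minus strand) moved less, at 197 RPKM in Col control, 164 in Col Al, 167 in luh-4 control and 139 in luh-4 Al, from 2323, 1953, 1979 and 1606 reads. Its ratios were -0.26 (-0.35 to -0.18) and -0.27 (-0.37 to -0.18). The averaged effect of -0.27 was called by edgeR (adjusted p = 0.02574) and not by DESeq2 (adjusted p = 0.4272). PIP1;4 (AT4G00430, chr4:185285-187680, minus strand) is a gene known to pass hydrogen peroxide. It stood at 88.2 RPKM in Col control, 81.9 in Col Al, 76.8 in luh-4 control and 72.3 in luh-4 Al, from 1042, 977, 911 and 838 reads, so the control and Al groups overlapped. Its ratios were -0.11 (-0.23 to 0.02) and -0.09 (-0.23 to 0.05), and its averaged effect was not called (-0.10, edgeR adjusted p = 0.5288).

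The next comparison set luh-4 against Col. Without Al, 0 of 7 members passed the 2-fold rule, where 1.55% of 17070 measured genes were higher and 0.855% lower. The interval lay below 0 for 5 of 7 members and above 0 for 0, against 12.6% and 15.7% of measured genes. The lowest ratios were -0.24 for PIP1;3 and -0.20 for PIP1;4, and the median was -0.12. Summed PIP reads had a ratio of -0.16 (-0.19 to -0.14). With Al, again 0 of 7 members passed the rule, where 1.22% of 17011 measured genes were higher and 0.946% lower. The interval lay below 0 for 5 members, against 16.4% of measured genes, and above 0 for 1, against 12.4%. PIP1;2 had the lowest ratio, -0.63 (-0.81 to -0.46), after 0.05 (-0.08 to 0.17) without Al. The member above 0 was PIP2;3, at 0.14 (0.04 to 0.24). Summed PIP reads had a ratio of -0.24 (-0.27 to -0.21). In the additive fit, 0 of 7 members had a genotype effect (edgeR, adjusted p under 0.05), where 0.353% of 17289 loci were higher in luh-4 and 0.602% lower. An unadjusted p under 0.05 was found for 3 members, against 11.3% of loci. DESeq2 called 0 members, against 0.0636% of loci higher and 0.116% lower, and gave 1 member an unadjusted p under 0.05, against 2.49% of loci.

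**Figure D3:**
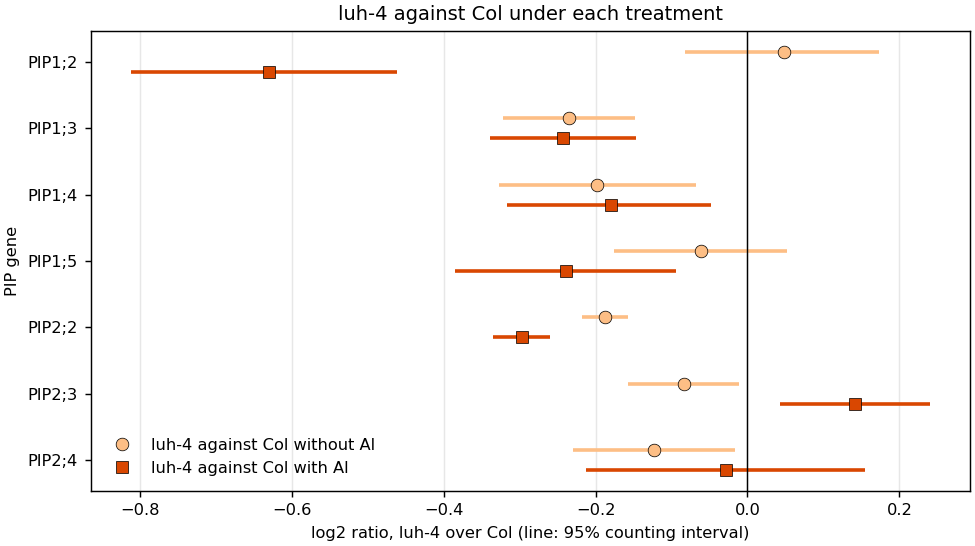
Log2 ratio of luh-4 over Col for each listed PIP member, with light circles for the control libraries and dark squares for the Al libraries. Lines are 95% counting intervals. The points in the top row were furthest apart, at 0.05 without Al and -0.63 with Al.

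The difference between the Al responses (luh-4 minus Col) passed the 2-fold rule for 0 of 7 members, where 1.35% of 17435 genes passed upwards and 2.26% downwards. The interval lay below 0 for 2 members, against 13.9% of genes, and above 0 for 1, against 9.95%. PIP1;2 differed most, at -0.68 (-0.89 to -0.47). The difference was 0.23 (0.10 to 0.35) for PIP2;3 and -0.11 (-0.16 to -0.06) for PIP2;2. For PIP2;4 it was 0.09 (-0.11 to 0.30), so the fall of this gene with Al did not differ between genotypes beyond counting error. For the remaining members it lay between -0.18 and 0.02, with intervals that reached 0. For the summed PIP reads it was -0.08 (-0.12 to -0.04). These intervals hold counting error only, and 1 library per group gives no test of a difference between genotypes.

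Marker genes of other cells also moved between these libraries. The summed level of 14 green shoot markers was 132 RPKM in Col control, 102 in Col Al, 415 in luh-4 control and 115 in luh-4 Al. All 14 were listed, and 9 of 14 were higher in luh-4 than in Col without Al, where 1.55% of measured genes were. In luh-4, 12 of the 14 fell with Al, where 3.1% of measured genes did. The summed level of 4 root hair markers was 243, 75.2, 284 and 168 RPKM in the same order. With Al, 3 of the 4 fell in Col and 0 in luh-4, where 2.91% and 3.1% of measured genes did. In luh-4 the interval still lay below 0 for 3 of the 4, against 20.6% of measured genes, and their median ratio was -0.60. The summed level of 4 endodermis and stele markers was 866, 811, 805 and 730 RPKM. Of these 4, 0 passed the rule in any comparison, where 0.855% to 3.1% of measured genes did in a given direction. NRT2.1, a nitrate transporter gene of roots, stood at 1155, 692, 733 and 406 RPKM. The part of these cell types in the PIP ratios was not tested. When the luh-4 Al library was set against the Col control library, 2 members fell, where 2.56% of 17055 measured genes did, and the ratio of summed PIP reads was -0.84.

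Promoters of the 3 listed PIP2 members are shown next, since PIP2;2 and PIP2;3, the pair above, are almost identical in coding sequence. Whether promoter sequence had a part in the Al ratios was not tested. The 250 bases before each gene start are printed 5′ to 3′ on the gene's strand, with the longest run shared by the pair, 11 bases, in capitals.
PIP2;2, chr2:15615023-15615272 (minus strand): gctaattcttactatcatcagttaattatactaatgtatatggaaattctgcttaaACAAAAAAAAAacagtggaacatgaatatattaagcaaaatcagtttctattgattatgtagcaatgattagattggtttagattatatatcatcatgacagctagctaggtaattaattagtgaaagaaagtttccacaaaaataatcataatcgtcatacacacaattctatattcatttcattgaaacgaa
PIP2;3, chr2:15617385-15617634 (plus strand): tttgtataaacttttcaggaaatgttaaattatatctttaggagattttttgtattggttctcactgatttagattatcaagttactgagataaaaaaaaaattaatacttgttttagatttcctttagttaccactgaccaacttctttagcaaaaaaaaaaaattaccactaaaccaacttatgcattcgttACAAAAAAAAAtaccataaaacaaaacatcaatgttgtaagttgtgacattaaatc
PIP2;4, chr5:24377207-24377456 (minus strand): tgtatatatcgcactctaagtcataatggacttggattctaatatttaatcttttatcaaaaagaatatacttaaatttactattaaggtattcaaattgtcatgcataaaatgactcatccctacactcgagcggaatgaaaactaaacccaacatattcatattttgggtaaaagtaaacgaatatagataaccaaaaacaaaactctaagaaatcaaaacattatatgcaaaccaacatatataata
In a global alignment the pair matched at 134 of 279 columns, 48.0%, beside 94.8% for their coding sequences. The match between windows of unrelated genes was not measured, so 48.0% has no baseline here. On both strands of this window, 5 motifs were searched in 27443 genes. TTGAC, the core of the W-box bound by WRKY factors, was found in 44.9% of all windows and in 3 of the 7 listed members, PIP1;3, PIP1;4 and PIP1;5. ACGTG, the core of the abscisic acid response element, was in 22.9% of windows and 0 members. CACGTG, the G-box, which overlaps it, was in 6.49% and 0 members. The drought response element GCCGAC was in 2.56% and the auxin response element TGTCTC in 10.9%, each with 0 members.

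Other aquaporins were read from lists of the whole family. Of the remaining 3 PIP2 genes of the genome, 0 passed the rule in any comparison, where 0.855% to 3.1% of measured genes did in a given direction. Their median Al ratios were -0.19 in Col and -0.18 in luh-4. In the additive fit 0 of these 3 fell or rose with Al (edgeR, adjusted p under 0.05), where 6.69% of all loci fell and 5.6% rose. Their median effect was -0.15. Tonoplast intrinsic proteins (TIPs) carry water across the vacuole membrane. Of 10 TIP genes 9 were listed and 6 measured, and 4 of these 6 fell with Al in each genotype, where 2.91% and 3.1% of all measured genes did. They were TIP2;1, at -1.72 in both genotypes, TIP2;2 at -1.78 in Col and -1.72 in luh-4, TIP2;3 at -1.49 and -2.12, and TIP4;1 at -1.59 and -1.13. The median TIP ratios were -1.54 and -1.42, and 6 of 6 fell in the additive fit (edgeR, adjusted p under 0.05), where 6.69% of all loci did. Of 9 NOD26-like intrinsic protein genes, 7 were measured in Col and 6 in luh-4. In both genotypes 1 fell, NIP1;1, at -1.84 and -1.95, where 2.91% and 3.1% of all measured genes did. The list medians were -0.45 and -0.27. In the additive fit 2 of 6 NIP genes fell and 0 rose (edgeR, adjusted p under 0.05), where 6.69% of all loci fell and 5.6% rose. The 2 listed genes of the small basic intrinsic proteins were within 2-fold in every comparison.

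**Figure D4:**
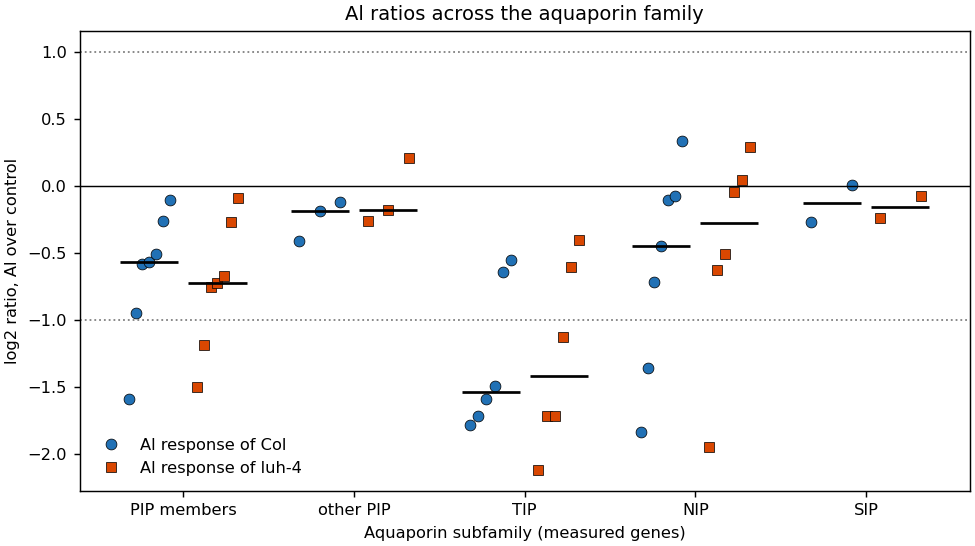
Log2 ratio of Al over control for each measured aquaporin gene by subfamily, with circles for Col, squares for luh-4 and a bar at each median. Dotted lines mark 2-fold. The TIP medians, -1.54 and -1.42, lay below those of the listed PIP members, -0.56 and -0.72.

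Genes for the trafficking and phosphorylation of PIPs were also read. The list held 13 genes, among them the syntaxins SYP121 and SYP61, which deliver PIPs to the plasma membrane, and the receptor kinase SIRK1. Of these 13, 12 were listed and 11 measured, and 0 passed the 2-fold rule in any of the 5 comparisons. Among all measured genes only 0.855% to 3.1% passed it in a given direction of a comparison, so 0 of 11 is near that share. The median Al ratios of the 11 were -0.19 in Col and -0.12 in luh-4. In Col the interval lay above 0 for 2 and below 0 for 5, against 20.6% and 18.2% of measured genes. The 2 were SYP121, at 0.98 (0.44 to 1.59), and SYP61, at 0.69 (0.25 to 1.16). The 5 were RMA2, at -0.99 (-1.47 to -0.55) from 121 and 61 reads, RKL1 at -0.49, VAP27-1 and RMA3 at -0.25, and QSK1 at -0.23. SYP121 had 40 reads in Col control and 81 in Col Al, and SYP61 had 67 and 110. In luh-4 the intervals of SYP121 and SYP61 held 0, at -0.22 to 0.78 and -0.63 to 0.30, as did that of RMA2, at -0.84 to 0.05. In the additive fit 2 of 11 fell with Al and 0 rose (edgeR, adjusted p under 0.05), where 6.69% of all loci fell and 5.6% rose.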

How the data were processed

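Root mRNA of 4 samples was sequenced as unreplicated libraries. Per the file headers, the authors deposited 1 table per library. It holds for each transcript its coding length, the count of reads assigned to it, the coverage in percent of the coding length, and RPKM as deposited by the authors. The submitters' processing notes name TAIR10. Aligner, counter and strand handling were not given in the sources used here, so overlapping antisense genes cannot be separated. Fragments were about 200 bp, per the labels' protocols.

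Read counts and RPKM were summed per locus, and transcripts without reads were taken as 0. Library totals of 13.5 to 13.8 M reads set the counting error, and PCR reads are not independent molecules. Log2 ratios of single genes used RPKM plus 0.1, which understates changes of low genes. Ratios of summed or joined reads used reads over library totals with nothing added. Intervals were exact conditional binomial (Clopper-Pearson) at 95%, and for the difference between Al responses normal approximations on log reads plus 0.5. The additive fit used edgeR 4.0.16 (TMM, filterByExpr, Benjamini-Hochberg over 17289 loci) and DESeq2 1.42.0 in R 4.3.3. Python 3.11.15 with pandas 2.3.3, scipy 1.17.1 and matplotlib 3.10.9 did the rest. DESeq2 gave no adjusted p for 1006 loci in the Al test and 4693 in the genotype test, and its shares are of all 17289 loci.

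Sequences, coordinates and transcript models came from RefSeq TAIR10.1, whose coding length equalled the deposited one for 96.6% of 23615 transcripts matched by name. The members and gene lists were chosen with earlier results of these data known. All members were named, with up to 4 genes past the size rule per other list and comparison, LUH, and the 3 genes most like the member of largest range. NRT2.1, WOX5, SYP121, SYP61 and the list genes given without values were named outside that rule. NIP4;2, past the rule in the difference between Al responses, had 4 to 12 reads per library.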

Additional observations from a re-analysis of the deposited data

Results flagged for a closer look

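PIP2;3 is given here because its luh-4 ratio had opposite signs under the 2 treatments. Without Al the log2 ratio of luh-4 over Col was -0.0843, from 249 against 264 RPKM. With Al it was 0.141, from 151 against 137 RPKM. Each side is 1 library, so the difference was not tested against variation between plants. Its counting interval was 0.10 to 0.35. Of the windows of 50 bases along its coding sequence, 31.4% were also found in another locus. With the reads of both joined, the ratios were -0.17 without Al and -0.24 with Al.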

How the results depend on the processing

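With a 1.5-fold rule in place of 2-fold, members past the rule, all lower, came to 2 for the Al response of Col, 5 for that of luh-4, 1 for luh-4 against Col with Al and 1 for the difference, the last both PIP1;2. Of all measured genes, 6.35%, 7.24%, 2.99% and 4.88% passed it downwards in these comparisons. With Col control as the baseline the summed luh-4 Al ratio was -0.84. The summed difference of -0.0818 became -0.0389 with TMM scaling and -0.0455 with centring on the median gene. Without a filter on low counts edgeR called 1 genotype effect, PIP2;2 (adjusted p = 0.03024), where 1.45% of 21531 loci were lower, and the cause was not tested. Alternatives chosen after seeing the data kept loci covered over at least 90%, which left 1 member for luh-4 Al by taking out PIP1;2, or left out PIP2;2, which gave summed ratios of -0.64 for Al in Col, -0.12 and -0.15 for luh-4 against Col without and with Al, and -0.0295 for the difference. The other alternatives (pseudocount, RPKM minimum, centring, most abundant transcript, joined pair, no interval, size factors) moved no count of members by over 1.5 times. Of 175 member ratios recomputed, 173 kept their sign. The exceptions were the PIP1;3 difference under TMM and under centring, 0.03 in both. No library could be left out, since no residual degree of freedom would remain. No paired analysis was possible because the labels give no replicate numbers and each group is 1 library.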

Other observations

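PIP2;4 had the largest range of the members over the 4 libraries, 1.62 on the log2 scale. Among 6763 genes with at least 20 RPKM in every library, 3 had centred log2 patterns closest to it over these 4 values. AT1G12805 differed from it by at most 0.11, with 134, 45.7, 139 and 50.2 RPKM in Col without and with Al and then in luh-4 without and with Al. AT4G27450 differed by at most 0.15, with 181, 57.8, 194 and 63.7 RPKM in that order. FRO2, the ferric chelate reductase gene of root iron uptake, differed by at most 0.19, with 469, 161, 347 and 124 RPKM.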
